A study of Homo sapiens with 6 samples.

Results

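The genes that license and copy DNA were examined in RNA sequencing of DU145 cells, a human metastatic castration-resistant prostate cancer line of epithelial origin. They were chosen by name as a list of 56 genes and sorted into 10 roles, from the origin recognition complex to fork protection. All 56 were found in the deposited table of 27381 genes, and all 56 were among the 12822 genes that reached 1 FPKM in at least 1 column. FPKM scales the sequenced fragments of a gene by transcript length and by the mapped fragments of the library, so levels of genes with different lengths can be set side by side.

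Of the 6 libraries, 2 are labelled as scrambled guide RNA controls (Scr), 2 as CD24 knockout (CD24 KO) and 2 as RCC2 knockout (RCC2 KO). The study made the knockouts with CRISPR/Cas9 from a transfected plasmid, and expanded clones from sorted GFP-positive cells. The controls went through the same procedure with a guide that has no target. The authors deposited 1 FPKM value per gene and condition. The RCC2 KO column carries a name that also labels the first RCC2 KO library alone, so it may hold 1 library or both. There is therefore no spread between libraries, no test and no p-value for any value here, the depth of the libraries is unknown, and the order of genes with neighbouring levels cannot be judged against replicate error. Changes are differences of log2(FPKM + 1), which understate the change of genes with low levels, and a gene was counted as called when it differed at least 2-fold on this scale.

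The RNA of each targeted gene was not lower under its own knockout label. CD24, a glycoprotein anchored at the cell surface, was measured at 93.2 FPKM for Scr, and its RNA was higher in the libraries labelled CD24 KO (309 FPKM) and RCC2 KO (214 FPKM). RCC2, a chromatin-associated protein of mitosis, was at 37.8, 14.2 and 41.8 FPKM in Scr and the libraries labelled CD24 KO and RCC2 KO, so it was lowest under the label CD24 KO. The table places its CD24 row on chromosome Y from 21034387 to 21438350, a stretch shared with TTTY14, so this value is less certain. The study identified its knockout clones by sequencing of genomic DNA and reports that Western blots and, for CD24, flow cytometry verified them. By Western blot it also reported more RCC2 protein in CD24 KO cells than in controls, opposite in direction to the RCC2 RNA here. Whether each column holds the cells its label names was not tested, and every result below depends on it. The groups are named as the libraries are labelled. Of 8 epithelial markers all 8 had at least 1 FPKM in each column, and they summed to 1155, 941 and 1326 FPKM across Scr, CD24 KO and RCC2 KO. In CD24 KO the keratins KRT8 and KRT18 were at least 2-fold lower than in Scr, with log2 changes of -1.17 and -1.05, while the other 6 were not 2-fold changed, among them the cadherin CDH1 at 0.89. KLK2, KLK3 and FOLH1, known from prostate luminal cells, were listed at 0 in all 3 columns. Of 11 markers of blood, endothelial and fibroblast cells, CD68 was the only one with at least 1 FPKM in any column. The 11 summed to 38.6, 83.1 and 39.2 FPKM across Scr, CD24 KO and RCC2 KO, and without CD68 to 1.5, 1.58 and 0.78 FPKM; the part of these markers in the results was not tested. PTPRC and CD3E were listed at 0 throughout.

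Before S phase, the origin recognition complex (ORC), CDC6 and CDT1 load the MCM helicase onto origins, a step called licensing that geminin (GMNN) restrains. In S phase, CDC7 with DBF4, MCM10, CDC45 and the GINS complex turn the loaded helicase into a moving fork, where DNA polymerases, the PCNA clamp and its loader copy both strands. Many of these genes are transcribed in waves at the G1/S transition by E2F factors, which the retinoblastoma protein RB1 restrains, and DU145 cells are known to lack functional RB1.

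In the libraries labelled CD24 KO, 54 of 56 replication genes were lower than in Scr, against 52.9% of all genes compared. The 2 that were higher were RFC1 and ORC4. At least 2-fold lower were 18 members, while 3.03% of all genes compared were at least 2-fold lower. No member was at least 2-fold higher, as 2.67% of all genes were. The median log2 change of the members was -0.76, beside -0.03 for all genes compared and -0.11 for the 8718 genes whose Scr level lay between those of the lowest and the highest member. Of those 8718 genes 59.7% were lower by any amount and 3.4% were at least 2-fold lower. Summed over the 56 genes, replication transcripts were at 2277, 1246 and 2319 FPKM across Scr, CD24 KO and RCC2 KO. When the columns were scaled to an equal sum (TPM), the median of all genes moved to 0.16 and that of the members to -0.58, with 51 members lower and 12 of them at least 2-fold lower, while 2.13% of all genes were then at least 2-fold lower and 6.51% at least 2-fold higher. The distance of the members' median from that of all genes was -0.72 as deposited and -0.74 after this scaling. Fewer cells in S phase and less of each RNA per cell cannot be told apart in bulk RNA.

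In the libraries labelled RCC2 KO the same genes lay close to Scr. No member was at least 2-fold changed in either direction, where 0.406% of all genes were at least 2-fold higher and 0.796% at least 2-fold lower. A count of 0 among 56 genes is near this background. The median log2 change was 0.02, and 52 of 56 members lay within 0.25 of no change, against 71.2% of all genes compared and 75.9% of genes in the same range of Scr levels. The 4 members farther out, ORC6, RFC3, GINS4 and UHRF1, were all higher, with log2 changes between 0.27 and 0.48.

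**Figure D1:**
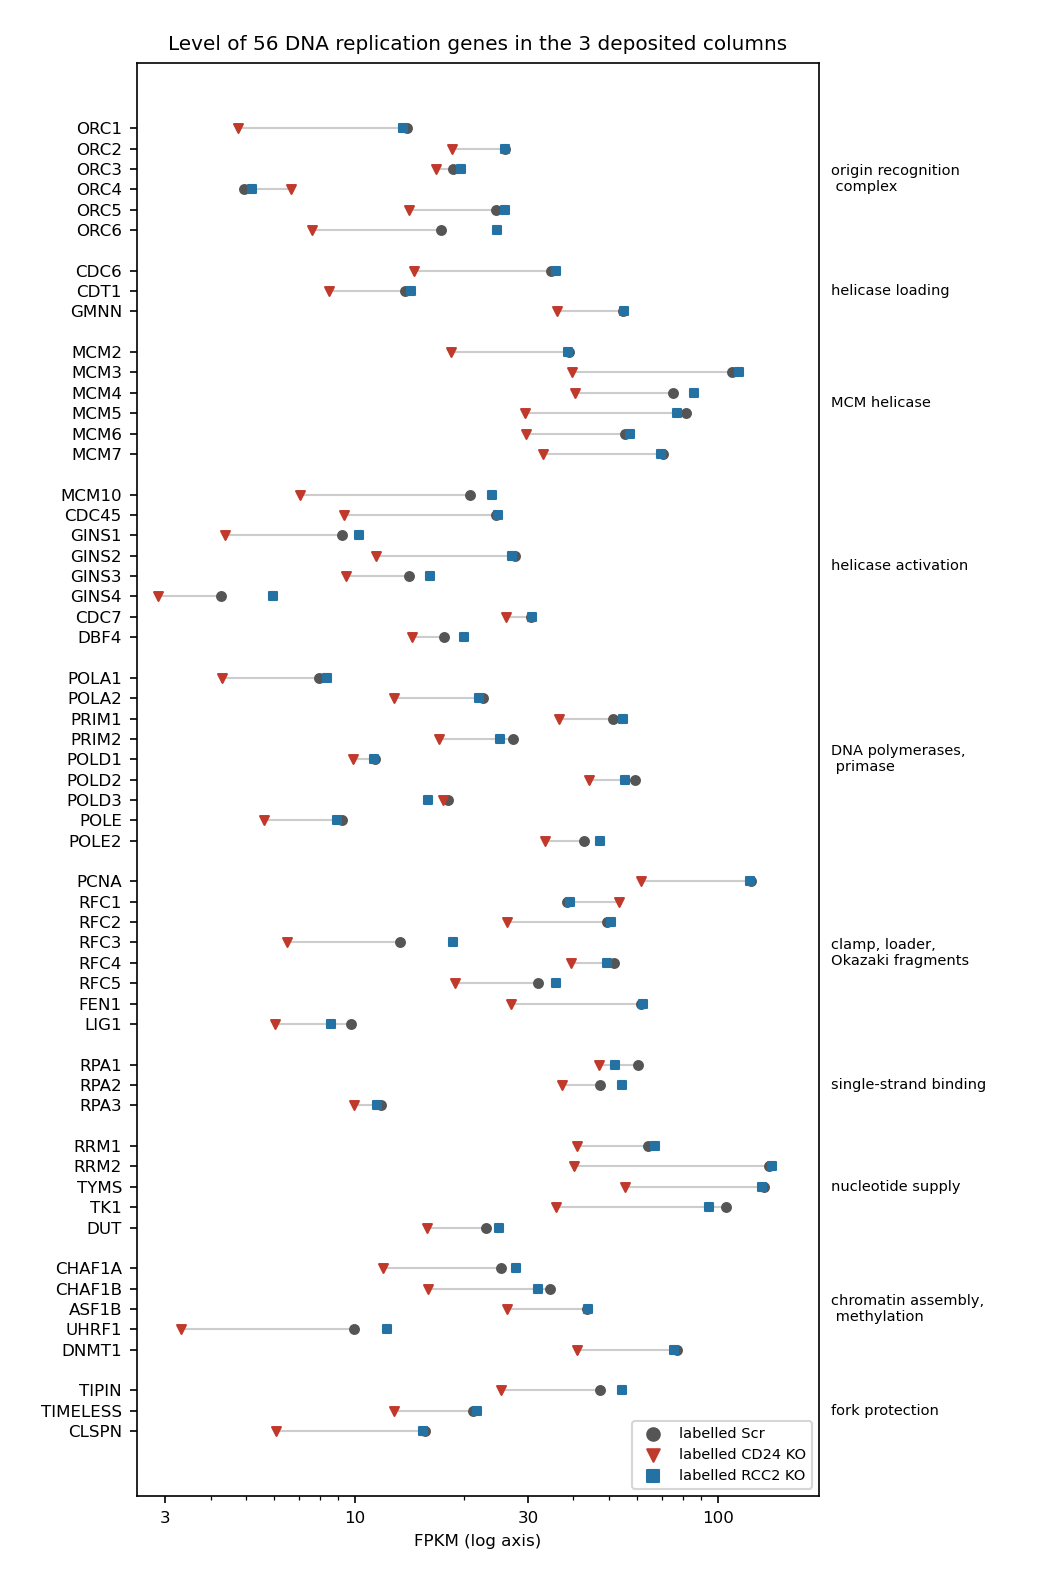
FPKM on a log axis of each of the 56 replication genes, grouped by role, with a circle for the Scr column, a triangle for CD24 KO and a square for RCC2 KO. Each symbol is the authors' value for a condition and has no error bar. The triangles lie left of the circles for all members but ORC4 and RFC1 (with columns scaled to TPM, also ORC3, POLD1 and POLD3), and the squares lie near the circles.

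The MCM helicase, the ring of MCM2 to MCM7 that unwinds DNA at the fork, was lower in CD24 KO in all 6 subunits, and 4 of 6 were at least 2-fold lower. With TPM scaling, quantile normalization or a pseudocount of 5 FPKM 2 of 6 were, MCM3 and MCM5. MCM3 was at 109.6, 39.6 and 114.5 FPKM across Scr, CD24 KO and RCC2 KO. MCM5 was at 81.6, 29.4 and 77.3 FPKM in the same order. These 2 subunits had the lowest changes of the ring in CD24 KO, with log2 values of -1.45 and -1.44. MCM7 was at 70.8, 33 and 69.9 FPKM across Scr, CD24 KO and RCC2 KO. MCM2 was the least abundant subunit in every column, at 39.0, 18.4 and 38.6 FPKM. MCM4, at 75.4, 40.3 and 86.0 FPKM, and MCM6, at 55.4, 29.6 and 57.4 FPKM, stayed just short of 2-fold, with log2 changes of -0.89 and -0.88 in CD24 KO. MCM3 was the highest subunit in Scr and in RCC2 KO, and MCM4 in CD24 KO, where the ratio of MCM3 to MCM4 was 0.981 against 1.45 in Scr and 1.33 in RCC2 KO. In RCC2 KO the log2 changes of the 6 subunits ran from -0.08 to 0.19. The table places MCM7 in a stretch shared with AP4M1, CNPY4 and TAF6, between which fragments could have been divided.

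The promoters of this group are shown because all 4 that the RefSeq table held (MCM2, MCM3, MCM6 and MCM7) contained at least 2 E2F words, as 0.154% of all 27303 promoters did. The words searched were TTTCCCGC, TTTCGCGC, TTTGCCGC and TTTGGCGC, on either strand, in 250 bases before and 50 after the annotated start of the gene. Words were counted also where they overlap, as TTTGGCGC does with the reverse of TTTCGCGC at both places in MCM6. In MCM2 both words are the opposite strands of 1 palindrome, so that promoter reaches 2 words through overlap at a single place. The sequences run 5′ to 3′ on the strand of the gene in GRCh38.p14, and capitals mark E2F words. MCM3 (chr6:52284743-52284992, minus strand), MCM6 (chr2:135876444-135876693, minus strand) and MCM7 (chr7:100101398-100101647, minus strand) are shown for the 250 bases before the start, and MCM2 (chr3:127598403-127598432, plus strand) for 30 bases around its start, where its words lie. A further word of MCM3 spans its start and is not shown.
MCM2: gtgaaccactTTTCGCGCGAAAcctggttg
MCM3: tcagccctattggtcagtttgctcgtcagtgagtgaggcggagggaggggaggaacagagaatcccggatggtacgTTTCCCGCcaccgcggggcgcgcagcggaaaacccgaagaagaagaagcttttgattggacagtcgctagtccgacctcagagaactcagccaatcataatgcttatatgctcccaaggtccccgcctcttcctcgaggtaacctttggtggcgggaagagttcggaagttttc
MCM6: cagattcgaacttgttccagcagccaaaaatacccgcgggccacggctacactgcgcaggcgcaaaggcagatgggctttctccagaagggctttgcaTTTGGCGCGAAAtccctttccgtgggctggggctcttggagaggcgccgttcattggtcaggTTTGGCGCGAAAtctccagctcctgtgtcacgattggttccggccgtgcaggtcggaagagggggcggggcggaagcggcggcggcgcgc
MCM7: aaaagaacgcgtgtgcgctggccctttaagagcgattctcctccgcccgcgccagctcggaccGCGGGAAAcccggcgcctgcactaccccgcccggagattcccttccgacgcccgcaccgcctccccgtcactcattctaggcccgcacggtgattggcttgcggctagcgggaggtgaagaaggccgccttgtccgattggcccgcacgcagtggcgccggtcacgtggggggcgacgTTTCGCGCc

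The origin recognition complex divided among its subunits. ORC1, the largest subunit and an ATPase, was at 13.9, 4.75 and 13.5 FPKM across Scr, CD24 KO and RCC2 KO. ORC6, the smallest, was at 17.3, 7.60 and 24.6 FPKM in the same order. These were the 2 subunits at least 2-fold lower in CD24 KO, with log2 changes of -1.37 and -1.09 (with TPM scaling ORC1 alone, and with a pseudocount of 5 FPKM neither), and ORC6 also had the highest change of all members in RCC2 KO, 0.48. ORC5 was at 24.5, 14.1 and 25.9 FPKM across Scr, CD24 KO and RCC2 KO. ORC2 was at 25.9, 18.5 and 25.8 FPKM, and ORC3 at 18.6, 16.8 and 19.6 FPKM. ORC2 and ORC3 had log2 changes of -0.47 and -0.14 in CD24 KO, and the sign of ORC3 turned when the columns were scaled to TPM. ORC4 was higher in CD24 KO, at 6.65 FPKM against 4.94 FPKM in Scr and 5.20 FPKM in RCC2 KO. The ratio of ORC1 to ORC4 was thus 2.81 in Scr, 0.714 in CD24 KO and 2.60 in RCC2 KO, a comparison within each column that its scaling cannot move. The position of ORC4 in the table also spans ACVR2A and MBD5, so its value is less certain.

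**Figure D2:**
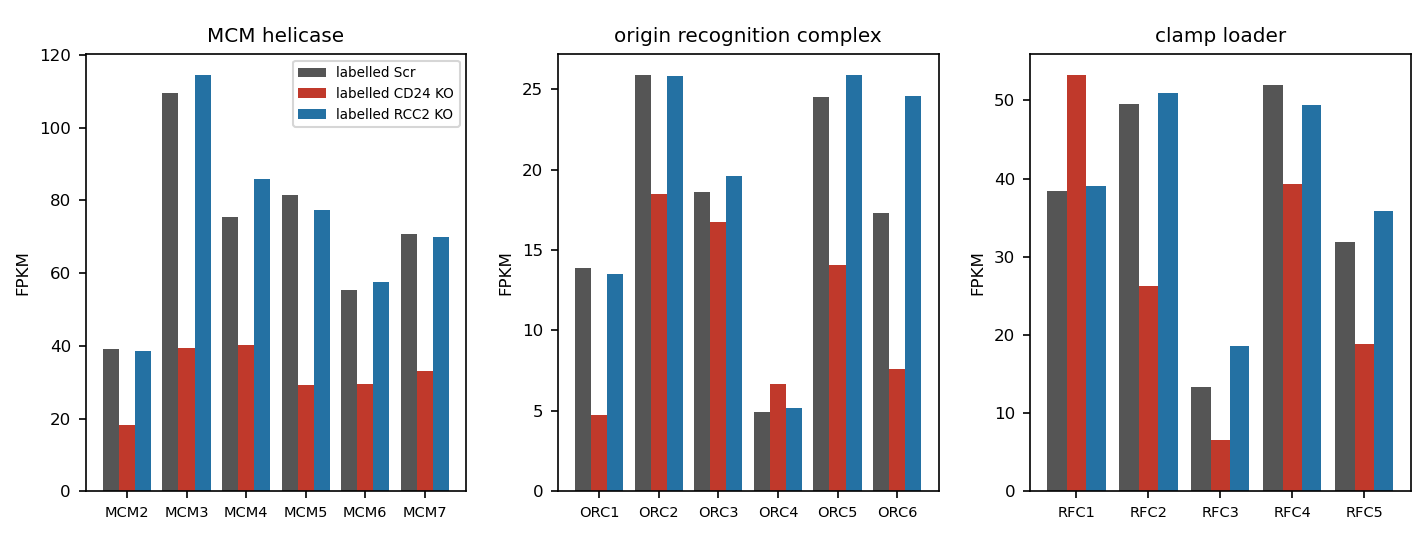
FPKM of the subunits of the MCM helicase, the origin recognition complex and the clamp loader, as bars from 0, with 1 bar for each deposited column (Scr, CD24 KO, RCC2 KO) and no error, since each condition has 1 value. The CD24 KO bar is the lowest for every subunit except ORC4 and RFC1, for which it is the highest (with columns scaled to TPM it is also not the lowest for ORC3).

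Of the factors that load the helicase, CDC6, an ATPase that joins ORC at origins, was at 34.8, 14.5 and 35.8 FPKM across Scr, CD24 KO and RCC2 KO. Its log2 change of -1.20 in CD24 KO was the lowest of the 3. CDT1, which escorts the MCM ring to the origin, was at 13.7, 8.49 and 14.2 FPKM. GMNN, which binds and blocks CDT1, was at 54.8, 36.0 and 55.1 FPKM. The activator and its inhibitor were lower to a like degree, with log2 changes of -0.64 and -0.59 in CD24 KO, and the ratio of CDT1 to GMNN was 0.251 in Scr, 0.235 in CD24 KO and 0.258 in RCC2 KO.

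MCM10, which helps to switch on the loaded ring, was at 20.8, 7.05 and 23.9 FPKM across Scr, CD24 KO and RCC2 KO. CDC45, a part of the active helicase, was at 24.5, 9.33 and 24.7 FPKM. GINS2, of the tetrameric GINS complex, was at 27.6, 11.4 and 27 FPKM. These 3 were at least 2-fold lower in CD24 KO, with log2 changes of -1.44, -1.31 and -1.20 (GINS2 not with a pseudocount of 5 FPKM). GINS1, GINS3 and GINS4 had log2 changes of -0.93, -0.53 and -0.45 there, so the subunits of this complex were lower by unequal amounts. In RCC2 KO, GINS4 was at 5.93 FPKM against 4.27 FPKM in Scr, a log2 change of 0.40. GINS4 shares its position in the table with GPAT4. The kinase CDC7 was at 30.6, 26.1 and 30.8 FPKM across Scr, CD24 KO and RCC2 KO. Its activating subunit DBF4 was at 17.6, 14.3 and 19.96 FPKM. The kinase pair had the smallest changes of this role in CD24 KO, -0.22 and -0.28, and DBF4 overlaps SLC25A40 in the table.

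None of the 9 member genes for DNA polymerases and primase was at least 2-fold lower in CD24 KO, though all 9 were lower (all but POLD1 and POLD3 when the columns were scaled to TPM). POLA2 and POLA1, of the polymerase that starts new strands, had the lowest log2 changes, -0.77 and -0.76. POLA2 was at 22.5, 12.8 and 22.0 FPKM across Scr, CD24 KO and RCC2 KO. The primase subunits PRIM1 and PRIM2, which lay down the RNA primer, had log2 changes of -0.48 and -0.65. For the leading-strand polymerase the catalytic subunit POLE was at -0.63 and its partner POLE2 at -0.34. Its further subunits POLE3 and POLE4, which are not members, were at -1.02 and -0.87, so POLE3 was at least 2-fold lower. POLE3 was at 176, 86.4 and 181 FPKM across Scr, CD24 KO and RCC2 KO. Polymerase delta, which works on the lagging strand, was the least changed, with POLD1 at -0.18, POLD2 at -0.41 and POLD3 at -0.04. Its subunit POLD4, not a member, was at 0.18. POLD3 was at 18, 17.5 and 15.9 FPKM across Scr, CD24 KO and RCC2 KO, and the signs of POLD3 and POLD1 in CD24 KO turned after scaling to TPM. POLD3 also had the lowest change of this role in RCC2 KO, -0.17.

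PCNA, the ring that tethers polymerases to DNA, was at 123, 61.5 and 122 FPKM across Scr, CD24 KO and RCC2 KO. FEN1, the nuclease that trims Okazaki fragments, was at 61.2, 26.9 and 62.0 FPKM. In CD24 KO the log2 change of FEN1 was -1.16 (not 2-fold with TPM scaling) and that of PCNA -0.99, just short of 2-fold. With a pseudocount of 0.1 FPKM, PCNA and RFC3 also passed 2-fold. PCNA shares its position with its antisense gene PCNA-AS1, and whether the counting used strand is not given in the sources used here. LIG1, which seals the fragments, was at 9.75, 6.02 and 8.61 FPKM.
The clamp loader did not move as a unit. RFC1, its large subunit, was higher in CD24 KO, at 53.3 FPKM against 38.4 (Scr) and 39.0 FPKM (RCC2 KO), with a log2 change of 0.46. The small subunits RFC2, RFC3, RFC4 and RFC5 were all lower, with log2 changes of -0.89, -0.93, -0.39 and -0.73. The ratio of RFC1 to RFC2 was 0.776 in Scr, 2.03 in CD24 KO and 0.767 in RCC2 KO, and that of RFC1 to RFC4 was 0.740, 1.35 and 0.789. RFC4 shares its position in the table with EIF4A2 and SNORA63, so its value is less certain. RFC3 was higher in RCC2 KO, at 18.6 FPKM against 13.3 FPKM in Scr and 6.51 FPKM in CD24 KO. The table, whose build is not named and was read as hg19, places RFC1 on chromosome 4 from 39289069 to 39368001. Its promoter is shown as that of the member with the highest change in CD24 KO (chr4:39366363-39366612, minus strand, GRCh38.p14), and no E2F word was found in its window.
RFC1: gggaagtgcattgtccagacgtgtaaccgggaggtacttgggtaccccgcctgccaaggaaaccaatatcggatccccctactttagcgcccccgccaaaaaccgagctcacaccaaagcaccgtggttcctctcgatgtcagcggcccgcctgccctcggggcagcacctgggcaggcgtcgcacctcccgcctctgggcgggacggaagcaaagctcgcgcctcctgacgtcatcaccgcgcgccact

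Replication protein A coats single-stranded DNA at the fork. Its subunits were the role with the smallest median change in CD24 KO, -0.35. RPA1 was at 60.3, 46.9 and 51.9 FPKM across Scr, CD24 KO and RCC2 KO. RPA2 was at 47.4, 37.1 and 54.5 FPKM, and RPA3 at 11.8, 9.91 and 11.5 FPKM. Of all members, RPA1 had the lowest log2 change in RCC2 KO, -0.21, while RPA2 was at 0.20. RPA3 lies in a stretch shared with UMAD1.

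Nucleotide supply had the lowest median of the 10 roles in CD24 KO, -1.26. RRM2, the small subunit of ribonucleotide reductase that makes deoxynucleotides, was at 138, 40.1 and 141 FPKM across Scr, CD24 KO and RCC2 KO. Its log2 change of -1.76 was the lowest of all members and ranked 54 from the lowest among the 12822 genes compared. RRM1, the large subunit of the same enzyme, was at 64.3, 40.8 and 67.1 FPKM. The ratio of RRM2 to RRM1 was 2.15 in Scr, 0.982 in CD24 KO and 2.10 in RCC2 KO. TK1, the thymidine kinase of the salvage route, was at 106, 35.7 and 94.6 FPKM across Scr, CD24 KO and RCC2 KO. TYMS, which makes thymidylate and is the target of fluorouracil, was at 134, 55.5 and 133 FPKM. Their log2 changes in CD24 KO were -1.54 and -1.26. DUT, which clears dUTP, was at 23.0, 15.8 and 24.95 FPKM, with a log2 change of -0.52. TYMS overlaps CLUL1, ENOSF1 and TYMSOS in the table, and GENCODE 29 names 3 pseudogenes of RRM2, 2 of TYMS and 8 of DUT. Reads may have been split among such copies. The table places RRM2 on chromosome 2 from 10262695 to 10271546 (read as hg19). Its promoter (chr2:10122489-10122738, plus strand, GRCh38.p14) is shown because RRM2 had the lowest change of the members and its window held no E2F word but 3 copies of the NF-Y word CCAAT, which are in capitals.
RRM2: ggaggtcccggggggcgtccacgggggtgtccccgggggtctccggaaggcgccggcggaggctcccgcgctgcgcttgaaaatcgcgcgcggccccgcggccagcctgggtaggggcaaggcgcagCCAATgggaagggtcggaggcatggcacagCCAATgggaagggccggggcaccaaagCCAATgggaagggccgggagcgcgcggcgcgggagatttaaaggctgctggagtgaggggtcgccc

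**Figure D3:**
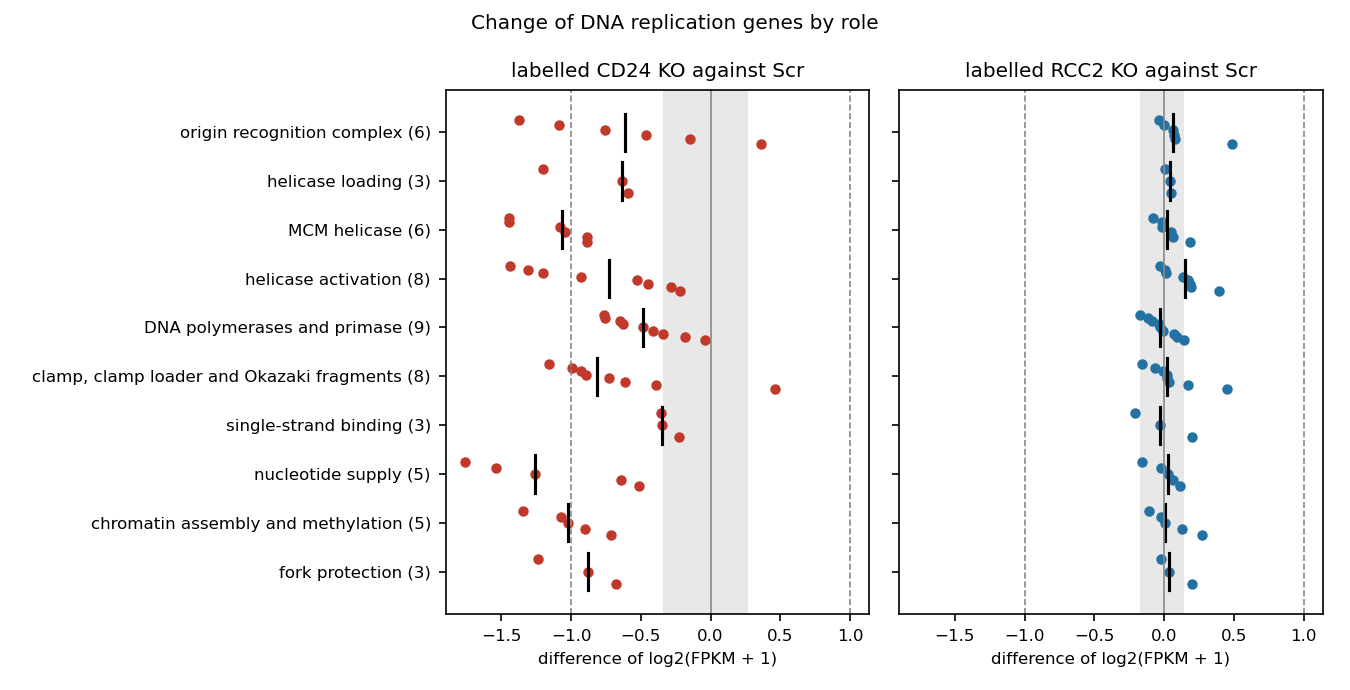
Difference of log2(FPKM + 1) between CD24 KO and Scr (left) and between RCC2 KO and Scr (right) for the 56 members, 1 point each, by role with the number of members. Black bars are medians of a role, dashed lines mark 2-fold and the grey band runs between the quartiles of all 12822 genes. The medians run from -1.26 for nucleotide supply to -0.35 for single-strand binding on the left and from -0.03 to 0.15 on the right.

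Genes that rebuild chromatin behind the fork were lower in CD24 KO in 5 of 5 cases, and 3 were at least 2-fold lower. Under TPM scaling or quantile normalization UHRF1 alone was, under median centring UHRF1 and CHAF1B were, and with a pseudocount of 5 FPKM 0 were. UHRF1, which recognises hemimethylated DNA, was at 9.97, 3.31 and 12.3 FPKM across Scr, CD24 KO and RCC2 KO. DNMT1, the maintenance methyltransferase that UHRF1 recruits, was at 77.1, 40.9 and 75.7 FPKM. The log2 changes in CD24 KO were -1.35 for UHRF1 and -0.90 for DNMT1. CHAF1A and CHAF1B, of the chromatin assembly factor that deposits new histones, had like log2 changes, -1.02 and -1.07. ASF1B, a histone chaperone, was at 43.6, 26.2 and 43.8 FPKM and had the smallest change of this role, -0.72.
At the fork itself, CLSPN, the adaptor that passes the checkpoint signal to CHK1, was at 15.6, 6.07 and 15.4 FPKM across Scr, CD24 KO and RCC2 KO. Its log2 change of -1.23 in CD24 KO was the lowest of the fork protection genes, and was not 2-fold with a pseudocount of 5 FPKM. TIPIN and TIMELESS, which form a complex that steadies the fork, had log2 changes of -0.88 and -0.68. TIPIN was at 47.3, 25.3 and 54.4 FPKM across Scr, CD24 KO and RCC2 KO.

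The size of the change was related weakly to the level in Scr. Across the 56 members, the log2 Scr level and the change in CD24 KO were correlated with Pearson's r at -0.36 and Spearman's rho at -0.30, and across the 8718 genes in the same range of levels these were -0.19 and -0.20. Both axes hold the Scr value, and genes are not independent replicates. Among the 28 members above the median Scr level 10 were at least 2-fold lower, and among the 28 below it 8 were. Without the members that overlap another gene in the table at 1 FPKM or more, or have a pseudogene named in GENCODE 29, 41 members were left. Of these 40 were lower in CD24 KO and 14 at least 2-fold lower, with a median log2 change of -0.77.

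The libraries labelled RCC2 KO were also set against those labelled CD24 KO, without the Scr column. In this comparison 53 of 56 members were higher in RCC2 KO (51 with columns scaled to TPM), and 21 were at least 2-fold higher, where 4.02% of all genes compared were. No member was at least 2-fold lower, as 4.3% of all genes were. ORC4, RFC1 and POLD3 were the 3 that were lower, with log2 differences of -0.30, -0.44 and -0.13. The median log2 difference of the members was 0.84, beside 0.02 for all genes. The differences were largest for RRM2, MCM10 and UHRF1, at 1.79, 1.63 and 1.62. Of the 18 members at least 2-fold lower in CD24 KO than in Scr, 17 were among these 21, and both counts use the same CD24 KO values.

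Further genes of DNA replication and of the cell cycle were listed by function. Among 39 other replication genes, 34 were lower in CD24 KO than in Scr (52.9% of all genes compared were) and 4 were at least 2-fold lower (3.03% of all genes), with a median log2 change of -0.41 beside -0.03 for all genes. The same shares of all genes apply to the lists that follow. CTPS1, which makes CTP, was at 42.5, 17.0 and 44.9 FPKM across Scr, CD24 KO and RCC2 KO. The nuclease and helicase DNA2 and the helicase activator TICRR followed, with log2 changes of -1.11 and -1.05. RRM2B, a p53-induced form of the reductase's small subunit, was higher, at 17.8 FPKM in CD24 KO against 12.0 FPKM in Scr and 11.3 FPKM in RCC2 KO. RRM2 and RRM2B, alternative partners of RRM1, thus lay on opposite sides of Scr. ASF1A, the paralogue of ASF1B, was higher in CD24 KO and in RCC2 KO, with log2 changes of 0.30 and 0.47.
Among 25 regulators of the G1/S transition, 18 were lower in CD24 KO and 5 at least 2-fold lower, with a median log2 change of -0.45. CDC25A, the phosphatase that activates CDK2, was at 9.77, 2.11 and 9.58 FPKM across Scr, CD24 KO and RCC2 KO. SKP2, which marks the CDK inhibitor p27 for destruction, and E2F8, a repressor of E2F targets, had log2 changes of -1.19 and -1.14. RBL2 (p130) and RB1, pocket proteins that bind E2F factors, and TFDP2, a partner of E2F factors, were higher in CD24 KO, with log2 changes of 0.56, 0.35 and 0.47.
All 30 genes of a mitosis list were lower in CD24 KO, 8 at least 2-fold, with a median log2 change of -0.76, the same to 2 decimals as that of the replication genes. PLK1, a mitotic kinase, CDC20, an activator of the anaphase-promoting complex, and MAD2L1, a spindle checkpoint protein, had the lowest log2 changes, -1.24, -1.23 and -1.22. NUSAP1, a spindle protein, had the smallest, -0.32. In RCC2 KO none of the genes in these 3 lists was at least 2-fold changed, where 0.406% of all genes were at least 2-fold higher and 0.796% at least 2-fold lower, so that a count of 0 in lists of this size is near the background. The medians were 0.03 for other replication genes, 0.09 for G1/S regulators and 0.11 for mitosis.

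**Figure D4:**
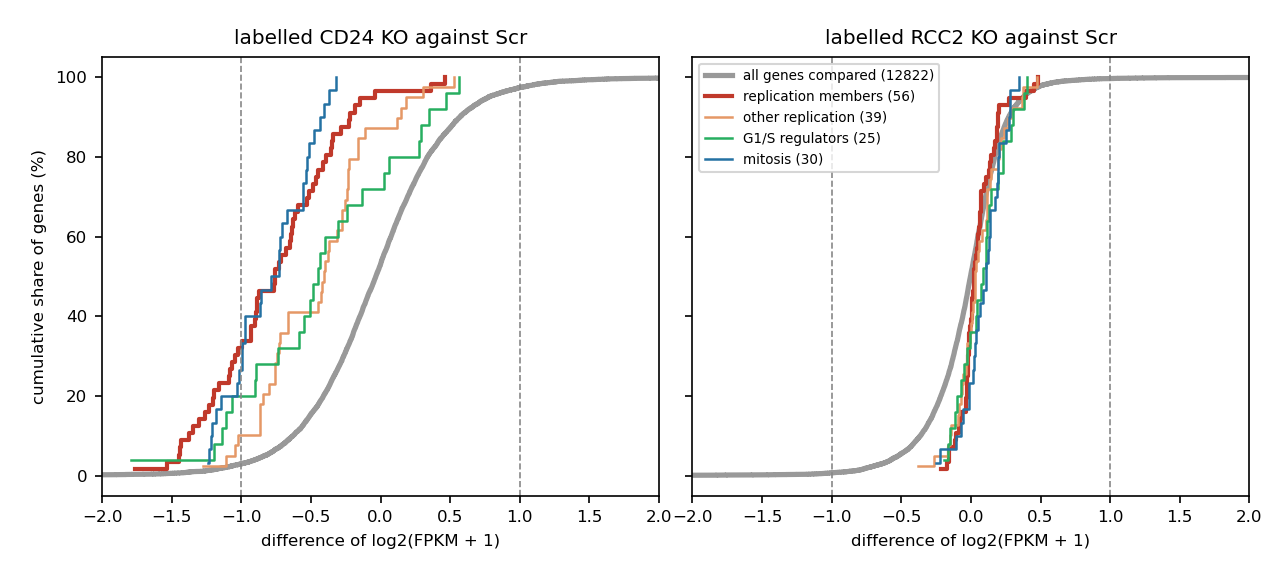
Cumulative share of genes (%) against the difference of log2(FPKM + 1), for CD24 KO against Scr (left) and RCC2 KO against Scr (right), drawn between -2 and 2. Lines show all genes compared, the 56 replication members and 3 further lists with their numbers of genes, and dashed lines mark 2-fold. On the left the members and the mitosis list lie left of all genes, with medians of -0.76 each against -0.03, and on the right all lines lie close together, with no median above 0.11.

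The E2F words shared by the MCM promoters were counted in the other members as well. RefSeq promoters were matched for 50 of 56 members, and GINS4, MCM4, MCM5, POLD3, RPA2 and RPA3 were not matched. At least 1 of the 4 E2F words was present in 21 of 50 member promoters (42.0%), against 3.33% of all promoters and 5.50% of the promoters of genes compared. TTTCCCGC was found in 12 member promoters, TTTCGCGC in 6, TTTGGCGC in 6 and TTTGCCGC in 0. The 21 genes had a median log2 change of -0.93 in CD24 KO and 8 of them were at least 2-fold lower, beside a median of -0.68 and 9 genes for the 29 members without such a word. RRM2, TK1, ORC1 and CDC45 were among the latter. For all genes compared, the median was -0.12 for 535 genes with an E2F word and -0.05 for 9189 genes without. At least 2-fold lower were 26 of these 535 genes and 254 of these 9189. Whether the word is related to the change was not tested. The CHR words TTTGAA and TTCGAA are known from genes of the G2 phase and mitosis. They were found in 4 of 50 member promoters (8%) and in 17 of 23 promoters of the mitosis list (73.9%). The share was 16.6% for all promoters and 10.6% for the promoters of genes compared. CCAAT, the NF-Y word, was in 28 of 50 member promoters (56%) and in 35.7% of all promoters. It was in 82.6% of mitosis promoters, 51.7% of other replication promoters and 36.8% of G1/S regulator promoters. All words were searched on both strands. A word in a promoter is a match of letters and not evidence of a bound factor.

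**Figure D5:**
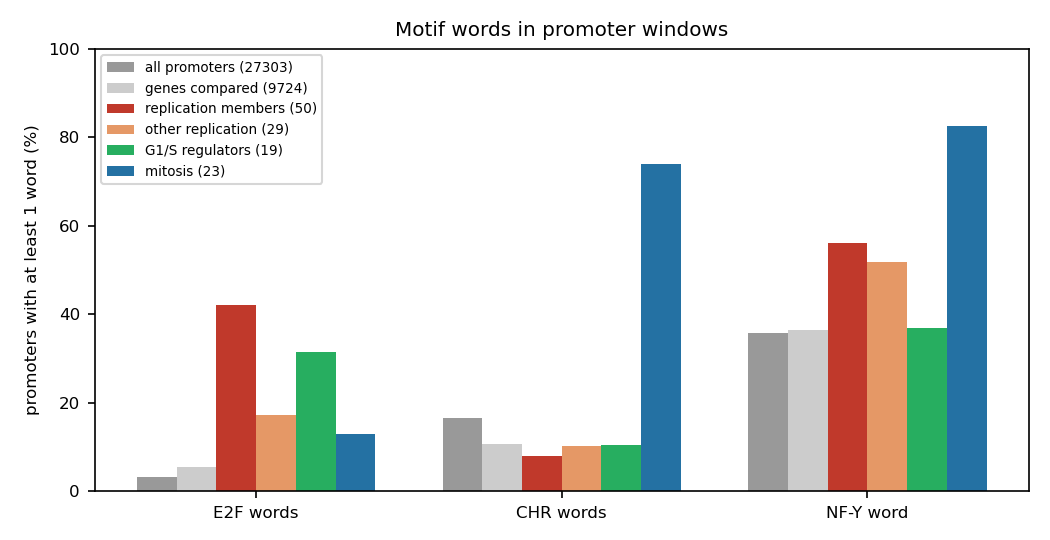
Share of promoter windows (%) with at least 1 E2F, CHR or NF-Y word, as bars from 0, for all promoters of the RefSeq table, the genes compared, the replication members and 3 further lists, with the number of promoters in each. E2F words stand highest in the members (42.0% of 50) and CHR words in the mitosis list (73.9% of 23).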

How the data were processed

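RNA of DU145 cells was measured in 6 libraries, 2 per label. The authors deposited 1 table of FPKM values, 1 column per condition. The submitters' processing notes name HISAT, StringTie, Cufflinks and GATK without roles; versions, genome build and annotation are not given in the sources used here. Of the 56 members, 12 overlapped their GRCh38 position, so the coordinates of the table were read as hg19, with starts counted from 1. Library preparation is a TruSeq RNA kit in the labels but a stranded mRNA version in the methods of the study.

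Genes with at least 1 FPKM in at least 1 column were compared as differences of log2(FPKM + 1), and at least 2-fold was the call. Had the table held a column per library, limma would have been used. The calculations were tested on simulated data. The members, lists and motifs were chosen with earlier results of these data known. All members could be named, in full for MCM, ORC, helicase loading and nucleotide supply, and in the other roles for the ends of the changes, 2-fold calls and changes against their role. In the other lists, the 3 genes at either end with at least 5 FPKM could be named. POLE3 and POLE4 were named besides, as subunits of the same polymerase as the members POLE and POLE2. Promoters are RefSeq's, from GRCh38.p14. Alternatives were other pseudocounts, filters, scalings and a 1.5-fold minimum. Tables were handled with pandas 2.3.3 and NumPy 2.4.6 under Python 3.11.15, correlations with SciPy 1.17.1, and plots with matplotlib 3.10.9.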

Additional observations from a re-analysis of the deposited data

How the results depend on the processing

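No paired analysis was possible because the table holds 1 value per gene and condition, and leaving out a replicate could not be run for the same reason. A value was taken as moved when it differed by over 0.1 (log2) or, for a count, by over 1.5 times. With a pseudocount of 5 FPKM the members' median log2 change in CD24 KO against Scr was -0.63, with 9 members at least 2-fold lower, and the median of RCC2 KO against CD24 KO was 0.67, with 13 members at least 2-fold higher. Scaling to TPM gave medians of -0.58 and 0.70. At a 1.5-fold minimum, 38 members were lower in CD24 KO than in Scr (11.6% of all genes compared) and 39 exceeded CD24 KO in RCC2 KO (13.8% of all genes). The other alternatives (a pseudocount of 0.1 FPKM, median centring, quantile normalization, the filter dropped or applied to each column and, chosen after seeing the data, the members without overlapping or copied genes) moved no median or count of calls by more than these limits. In RCC2 KO against Scr, every alternative left 0 members called in either direction, a count near the background at 2-fold. Changes of single members in CD24 KO against Scr were less steady. Scaling to TPM moved 55 of 56, quantile normalization 29, a pseudocount of 5 FPKM 25 and a pseudocount of 0.1 FPKM 7. Median centring left all 56 within the limit. Over 5 of the alternatives, the sign of a single member's change in CD24 KO against Scr turned for ORC3, POLD1 and POLD3, and in RCC2 KO for 7 members near 0. Depth is unknown, so the lower limit of detection could not be given.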
